A study of Mus musculus with 8 samples.

Results

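The regions marked by H3K27me3 only in PT 1 and PT 4 are stretches of the mouse genome where 2 of 3 glioma-derived cultures carried a called peak of this histone mark and 3 other libraries carried none. They were chosen by measured values, namely the presence of a peak in each of 5 deposited peak lists. Peaks that overlapped or touched were merged across the lists, and a merged region was kept if it held a peak of PT 1 and of PT 4, none of PT 3, AstroEGFR 1 or AstroEGFR 3, and was narrower than 10000 bp. There were 14364 such regions among 99646 merged regions, or 14.5% of the 98788 merged regions below that width and 44.6% of the 32190 below it that were marked in both PT 1 and PT 4. Both percentages are what the rule left and carry no test.

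The study followed H3K27me3 in a mouse model of glioma by chromatin immunoprecipitation and sequencing. AstroEGFR 1 and AstroEGFR 3 were cultures of astrocytes from the cerebral cortex of C57BL/6 pups at postnatal day 5, deficient for p16/p19 (the Ink4a/Arf locus) and carrying human EGFRvIII, a constitutively active EGF receptor variant, from a retrovirus. PT 1, PT 3 and PT 4 were cultures of glioma propagating cells, grown from tumours that C57BL/6 cells had formed after transplantation into CD1 Nude mice. The tumour cultures descend from astrocytes with the same deficiency and transgene, so all 5 libraries share both, and every culture was below passage 10. Viral integration and growth in culture were therefore common to both groups. Passage through a host, growth as a tumour and the medium used for tumour cells were not, and their parts cannot be told apart. PT 3 shared these with PT 1 and PT 4, yet by the rule it had no peak in these regions. The labels do not say which astrocyte culture gave rise to which tumour culture. One library stood for each culture, so the regions rest on a single peak list per culture.

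H3K27me3 is laid down by EZH2 or EZH1, the alternative catalytic subunits of Polycomb repressive complex 2. It is found over silenced genes, above all regulators of development, where it can spread from CpG islands into wide domains. In neural cells it keeps the genes of other lineages and of later stages silent, and it is redistributed as cells differentiate or transform. Peak callers made for narrow signals commonly divide such a domain into several peaks, so a region in a merged peak list is a called interval rather than a whole domain.

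The lists differed in length. PT 1 held 64504 peaks and PT 4 held 66279, against 40090 for PT 3, 34021 for AstroEGFR 1 and 3722 for AstroEGFR 3. The lowest score in a list lay between 70.05 and 75.69. Read depth is unknown from these lists, so a missing peak says that the caller reported none, not that the mark was absent. Of the 32190 regions marked in both PT 1 and PT 4, AstroEGFR 1 marked 42.8%, PT 3 marked 31.6% and AstroEGFR 3 marked 4.33%. The PT 3 list held more peaks than that of AstroEGFR 1 but covered less of the genome, 39.2 Mb against 50.1 Mb. The peak of AstroEGFR 3 was the only further peak in just 110 of these regions, so this short list decided little of the membership. The part that sequencing depth and the strength of each immunoprecipitation had in the membership was not tested.

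The regions marked only in PT 1 and PT 4 were narrow. Their width ran from 419 to 9906 bp with a median of 1115 bp, and the middle 50% lay between 862 and 1614 bp. Together they spanned 19.8 Mb, of which 16.4 Mb lay in PT 1 peaks, 15.4 Mb in PT 4 peaks and 11.97 Mb, or 60.4%, in peaks of both. They held 24.1% of all PT 1 peaks and 23.8% of all PT 4 peaks. A single peak from each culture made up 12332 of the regions (85.9%), and in these the peak centres lay a median of 129 bp apart, with an upper quartile of 270 bp. The wider of those paired peaks was that of PT 1 in 6502 regions and that of PT 4 in 5783. In only 3 regions did the peaks of the 2 cultures touch without sharing a base.

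Peak scores were given as deposited. By convention of the caller a higher score stands for a call less likely under its background model, but no header states this. Because each list has its own depth, scores are also given as percentiles within a list. The best PT 1 peak in a region scored a median of 150 (quartiles 98.6 and 264, range 75.01 to 3100), close to the middle of the PT 1 list at percentile 52.4. In PT 4 the median was 141 (quartiles 98.1 and 234, range 74.36 to 3100), at percentile 51.2. Neither culture dominated, as the percentile was higher in PT 1 for 7378 regions and higher in PT 4 for 6986. Scores of at least 100 were reached in both cultures by 8158 regions (56.8%), while 1378 (9.59%) stayed below 100 in both. Only 201 regions (1.399%) were in the top 10% of both lists. Across the 14364 regions the scores of PT 1 and PT 4 had a Spearman correlation of 0.38, which describes regions of the same libraries and is not a test over replicates.

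**Figure D1:**
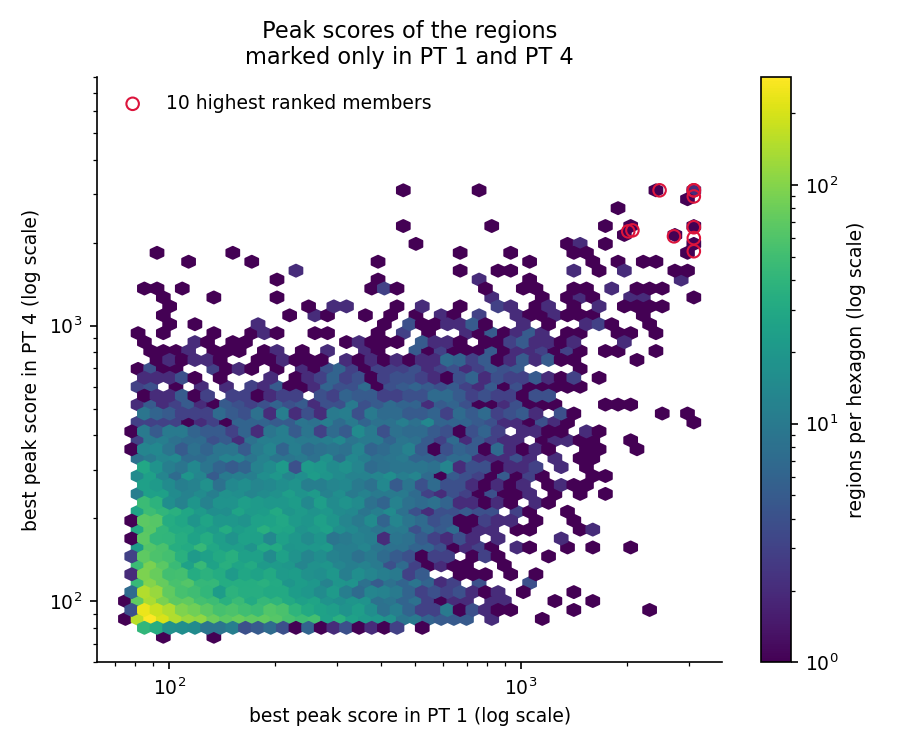
Best peak score in PT 1 (x axis) and in PT 4 (y axis), both on log scales and in the caller's score units, for the 14364 regions marked only in PT 1 and PT 4. Colour gives the number of regions per hexagon on a log scale and red circles mark the 10 highest ranked regions. The densest hexagons lie near the lower limit of both lists, and 201 regions are in the top 10% of both.

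Regions strongly marked in PT 1 and PT 4 seldom lacked a peak elsewhere. The 32190 regions marked in both were divided by the lower of their 2 score percentiles. In the weakest band, up to percentile 20, 65.9% had no other peak (4415 of 6701), and that share was 60.7%, 51.9% and 35.9% in the next 3 bands. In the strongest band, above percentile 80, it was 12.8% (891 of 6973). Over the same bands the share with an AstroEGFR 1 peak went from 22.2% to 75.7%, the share with a PT 3 peak from 17.2% to 61.4% and the share with an AstroEGFR 3 peak from 1.12% to 12.3%. The regions of the strongest band that were marked only in PT 1 and PT 4 were wider, with a median of 2852 bp against 887 bp in the weakest. The peaks of the 2 cultures also covered each other more fully there. The length shared by both divided by the length covered by either had a median of 0.82, against 0.58 in the weakest band. A merged region widens when a list is added, and the part that width had in the shares with another peak was not tested.

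**Figure D2:**
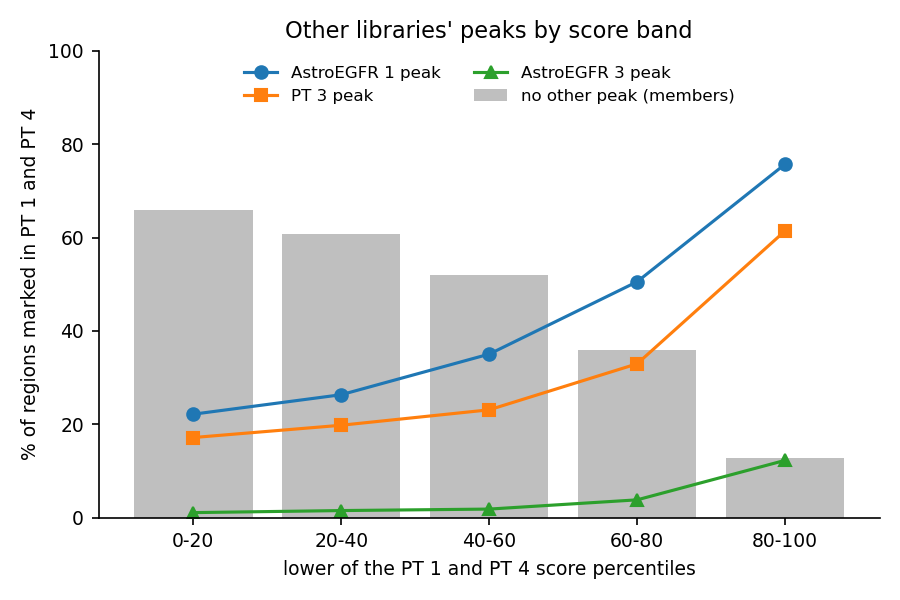
Regions narrower than 10000 bp with a peak in both PT 1 and PT 4, by band of the lower of their 2 score percentiles (x axis). Bars give the percentage with no other peak and lines the percentage with a peak of AstroEGFR 1, PT 3 or AstroEGFR 3 (y axis, %). The bars fall from 65.9% to 12.8% as the lines rise.

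Most regions shared with just 1 further library fell into 2 classes, namely 7369 regions marked in AstroEGFR 1, PT 1 and PT 4 and 3718 marked in all 3 tumour cultures and in neither astrocyte culture. No test of the difference was run, since regions of the same libraries are not replicates and a merged region widens when a list is added. PT 1 peaks covered a median of 865 bp of a region marked only in PT 1 and PT 4, against 1403 bp where AstroEGFR 1 was also marked and 1306 bp where PT 3 was. The corresponding PT 4 lengths were 826, 1290 and 1189 bp. Median PT 1 score percentiles were 52.4, 71.6 and 67.6, and the median PT 4 percentiles were 51.2, 70.6 and 65.1. The Spearman correlation of the PT 1 and PT 4 scores was 0.38, 0.59 and 0.53 in this order. The position of the peaks did not follow the same order, since centres lay a median of 129 bp apart in the regions marked only in PT 1 and PT 4, 130 bp with AstroEGFR 1 and 160 bp with PT 3, each over regions with 1 peak per culture.

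The regions were ranked by the lower of the 2 percentiles, and the 10 highest are described here with coordinates of the mm9 build. No annotation of that build was used, so none is placed in a gene. The first 2 both reached a score of 3100 in PT 1 and in PT 4. At or above this value lay 1176 PT 1 peaks and 1082 PT 4 peaks. Regions tied at 3100 are not ordered by that score, and the first 2 were ordered by width. The first, chr7:103724056-103733804, was 9749 bp wide and its peaks in the 2 cultures shared 9602 bp. The second, chr8:123637242-123646498, was 9257 bp wide with 8544 bp shared. In both regions the peaks of PT 1 and PT 4 therefore covered nearly the same bases, and the nearest AstroEGFR 1 peak lay 2925 bp from the first and 20537 bp from the second.

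The third region, chr19:56754511-56763032, scored 3100 in PT 1 and 2945.51 in PT 4. Its nearest PT 3 peak lay 5215 bp away and its nearest AstroEGFR 1 peak 135805 bp away. The fourth, chr7:82254505-82262910, scored 3100 and 2276.63 and lay 1179 bp from one of the few AstroEGFR 3 peaks. So the 2 regions differed in which excluded library came nearest. The fifth, chr7:104026556-104036221, had its higher score in PT 4 (3100) and 2477.26 in PT 1. The sixth was chr10:79759219-79764242, which scored 2722.65 in PT 1 and 2110.13 in PT 4 and had no merged region of any kind within 25792 bp, unlike the other 9, whose nearest neighbour lay 7 to 2493 bp away.

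The remaining 4 were lower in at least 1 culture. The region chr10:123008604-123014858 scored 3100 in PT 1 and 2079.53 in PT 4, and chr11:3399056-3408701 scored 3100 and 1862.9. In each, PT 1 was the higher. The regions chr7:120276935-120281452 (2073.78 in PT 1 and 2218.33 in PT 4) and chr8:123649512-123653875 (2017.64 and 2199.52) were slightly higher in PT 4. The last lay close to the second-ranked region on chromosome 8. Of the 10 regions, 4 were on chromosome 7, 2 on chromosome 8, 2 on chromosome 10 and 1 each on chromosomes 11 and 19. Their gaps to the nearest AstroEGFR 1 peak ran from 1675 to 135805 bp and those to the nearest PT 3 peak from 3702 to 35607 bp.

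The width limit cut through runs of strong marking. The widest regions inside it were chr9:26298761-26308666 (9906 bp, scores 1394.56 in PT 1 and 268.83 in PT 4) and the top-ranked region of 9749 bp. Just outside were chr6:99761706-99773071 (11366 bp, scores 2657.14 and 1161.86) and chr7:104014446-104026506 (12061 bp, scores 1953.24 and 3100). Only 5 regions missed the rule by width alone, the widest of them chr7:71610117-71641471 with 31355 bp and a score of 3100 in both cultures. The fifth-ranked region began 49 bp after the 12061-bp one, which was over the limit by itself. A gap of that length kept the fifth-ranked region separate and so inside the limit.

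One such run lay on chromosome 9. Between positions 26280754 and 26366871, a span of 86118 bp, PT 1 and PT 4 shared 9 regions below the width limit, totalling 34467 bp, and 2 above it, of 16513 and 14528 bp. The 2 wide ones were separated by 217 bp and reached 3100 in PT 1, with 3100 and 1715.16 in PT 4. In the 150 kb centred on the widest region within the limit, PT 1 had 23 peaks over 71732 bp and PT 4 had 29 peaks over 58686 bp. PT 3, AstroEGFR 1 and AstroEGFR 3 had 0 peaks there.

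Other surroundings were less clear-cut. In the 150 kb around the top-ranked region on chromosome 7, PT 1 and PT 4 peaks covered 108004 and 94729 bp, and 26 regions were marked only in these 2 cultures. AstroEGFR 1 had 5 peaks over 9166 bp there and PT 3 had 4 over 2411 bp. The top-ranked region was flanked by a 10358-bp region that AstroEGFR 1 also marked, 1259 bp before it, and by another marked only in PT 1 and PT 4, 7 bp after it. Around the second-ranked region on chromosome 8, the 150 kb held 28 PT 3 peaks over 38717 bp, 9 AstroEGFR 1 peaks over 25875 bp and 7 AstroEGFR 3 peaks over 8291 bp, and a stretch marked in every library lay at lower coordinates than the 5 regions marked only in PT 1 and PT 4. Around the third-ranked region on chromosome 19, PT 3 had 15 peaks and both astrocyte libraries had 0.

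**Figure D3:**
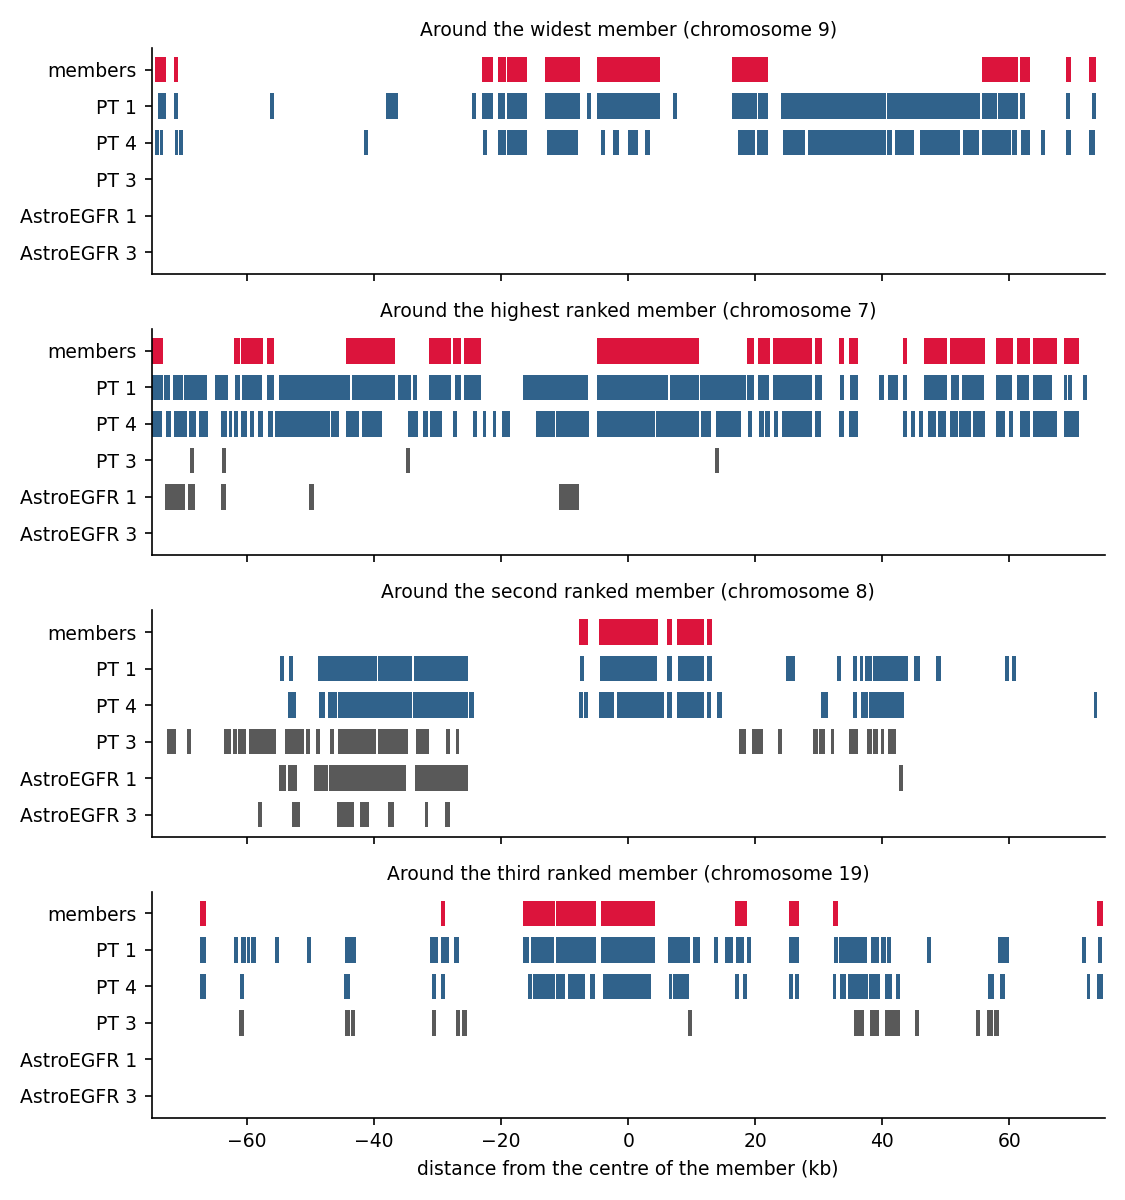
Called peaks of each library in the 150 kb around 4 regions marked only in PT 1 and PT 4: the widest and the 3 highest ranked. The x axis is the distance from the centre of the region in kb, each row is a library, and the top row (red) shows the regions marked only in PT 1 and PT 4. The chromosome 9 panel has 0 peaks of the other 3 libraries, while the chromosome 8 panel has 28 PT 3 peaks, 9 AstroEGFR 1 peaks and 7 AstroEGFR 3 peaks.

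Many of the regions had close neighbours, of their own kind and of others. The nearest merged region of any class lay a median of 399 bp away. No grouping count is given here for other classes, so grouping is not shown to be particular to these regions. Of the 14345 on placed chromosomes, 6981 (48.7%) had no other of their kind within 5 kb. The rest fell into groups of 2 or more linked by gaps of at most 5 kb. There were 177 groups of at least 5, which held 1083 regions (7.55%). The 5 largest groups are named here by their number of members, a choice made after their values were seen. The largest, chr19:56970599-57032873, held 16 regions covering 49.5% of its 62275 bp, with best scores of 1028.76 in PT 1 and 531.77 in PT 4. Groups of 15 lay at chr7:56251739-56306001 (65.4% of the span covered, best scores 1529.18 and 1038.23) and chr11:67543514-67592244 (59.95%, 984.35 and 762.9). The groups of 13 covered more of their span, with 73.8% at chr8:96996267-97054976 (best scores 2917.31 and 2016.33) and 76.4% at chr4:32588264-32630920 (2486.17 and 1016.44). AstroEGFR 1 and AstroEGFR 3 had 0 peaks within any of the 5 spans. PT 3 had 2 peaks between the members of the group on chromosome 19, 3 in the group on chromosome 11 and 0 in the other 3.

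Some stretches between neighbouring peaks of the 3 excluded libraries held many of the regions. Among those shorter than 1 Mb, chr15:85656826-85860238 held the most, with 26 regions over 203413 bp totalling 60224 bp, beside 8 regions marked in PT 1 alone and 12 in PT 4 alone. Next came chr11:66925538-67151039 with 22 regions and chr7:103743249-103870730 with 21. The last lies just beyond the top-ranked region, in the 1-Mb window with the most members, chr7:103000001-104000000. In that window 78 of 103 regions shared by PT 1 and PT 4 had no other peak (75.7%). The windows that followed by number were chr8:12000001-13000000 with 72 of 120 and chr4:32000001-33000000 with 66 of 81 (81.5%), and the next 3, all on chromosome 7, had shares of 62.8% to 65.6%. These windows were chosen for their counts among 1613 windows with a member, whose median was 6, and 296 windows held 50% of all members on placed chromosomes.

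Peaks of the excluded libraries were often near. The nearest AstroEGFR 1 peak lay a median of 8930 bp from a region marked only in PT 1 and PT 4, the nearest PT 3 peak 8368 bp and the nearest AstroEGFR 3 peak 180261 bp. Counting any of the 3, the median gap was 3446 bp, 24.0% of the regions on placed chromosomes lay within 1 kb of such a peak, 58.3% within 5 kb and 95.5% within 100 kb. Within 5 kb, 2924 regions had peaks of both AstroEGFR 1 and PT 3, 2768 had AstroEGFR 1 without PT 3, 2599 had PT 3 without AstroEGFR 1, and 6054 had neither. The share within 5 kb was 52.4% for regions marked in PT 1 alone and 45.2% for those marked in PT 4 alone. The single nearest merged region held a peak of an excluded library for 4924 regions (34.3%). It was another region of the same kind for 3858 (26.9%), marked in PT 1 alone for 2951 and in PT 4 alone for 2612. Among all 99646 merged regions, those of the same kind were 14.4%. Placed chromosomes held 16939 regions marked in PT 1 alone and 17614 marked in PT 4 alone. The nearest region was not counted in this way for other classes.

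Median width and score differed little with this distance. From regions within 1 kb of an excluded library's peak to those beyond 100 kb, the median width was 1079 and 1046 bp, the median PT 1 score 149 and 141, and the median PT 4 score 143 and 142. The share in the top 10% of both lists was 0.90% within 1 kb (31 of 3445), 1.42% from 1 to 5 kb, 1.62% from 5 to 20 kb, 1.91% from 20 to 100 kb (36 of 1888) and 1.24% beyond 100 kb (8 of 643). The strongest region beyond 100 kb was chr19:4510651-4515168, which scored 2350.8 in PT 1 and 1418.4 in PT 4 with a gap of 119956 bp. The next were a pair on chromosome 7, chr7:69365921-69370819 (2009.17 and 1234.76) and chr7:69362206-69365732 (1494.36 and 1216.05). Only 43 regions were more than 1 Mb from any such peak, 17 of them on the X chromosome and 9 on chromosome 7. These chromosomes held 0.72% and 9.95% of all regions marked only in PT 1 and PT 4. On the whole X chromosome AstroEGFR 1 had 39 peaks, PT 3 had 49 and AstroEGFR 3 had 55. The farthest, chrX:20415905-20417580, scored 393.69 in PT 1 and 497.75 in PT 4, and its nearest excluded peak was 7391066 bp away.

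**Figure D4:**
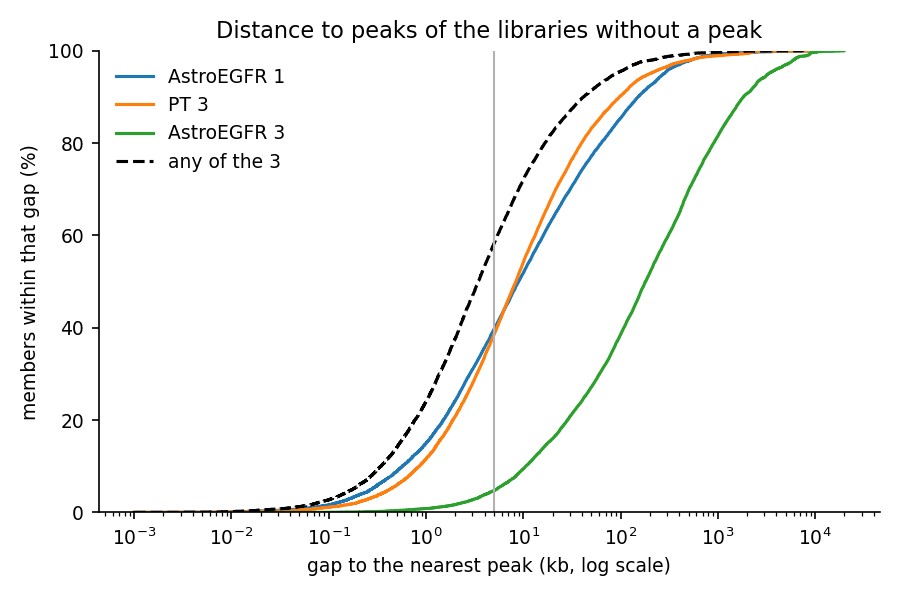
Percentage of the 14345 regions on placed chromosomes (y axis) with a peak of AstroEGFR 1, PT 3, AstroEGFR 3 or any of the 3 within the gap on the x axis (kb, log scale). The grey line marks 5 kb, where the dashed line for any of the 3 is at 58.3% and the line for AstroEGFR 3 at 4.72%.

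The regions were spread over every autosome, in unequal shares. Chromosome 11 held 1463 (10.2%, against 7.48% of all merged regions below the width limit), chromosome 7 held 1429 (9.95% against 7.12%) and chromosome 15 held 1053 (7.33% against 4.65%). Chromosome 10 went the other way, with 804 regions or 5.597% against 9.69%. As a share of the regions marked in both PT 1 and PT 4, the regions without another peak ranged over the 19 autosomes from 28.8% on chromosome 10 to 58.1% on chromosome 13, with a median of 45.5%. Chromosome 10 carried 3981 AstroEGFR 1 peaks and 5993 PT 3 peaks. For each region shared by PT 1 and PT 4 these were 1.43 and 2.15, against 0.65 and 1.09 on chromosome 13. Chromosome 14 had 1.15 and 2.06 with a share of 44.9%, and chromosome 1 had 1.61 and 1.96 with 32.6%. What part this density had in the order of the chromosomes was not tested. In the strongest score band the share ran over the autosomes from 4.67% on chromosome 14 (5 of 107) to 21.6% on chromosome 7 (135 of 626). It was 5.30% on chromosome 10 (35 of 661), 16.9% on chromosome 13 (41 of 243) and 20.9% on chromosome 15 (91 of 436). The X chromosome had 29.2% in this band (7 of 24).

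The X chromosome stood above the autosomes, with 103 of 133 shared regions (77.4%) marked only in PT 1 and PT 4. It was thinly marked in PT 1 (304 peaks), PT 4 (255), PT 3 (49) and AstroEGFR 1 (39). The much shorter AstroEGFR 3 list had 55 peaks there, near its 59 on chromosome 16. The Y chromosome, which held 1 region, had 23 peaks in PT 3 and 24 in AstroEGFR 3, against 6 in PT 1, 2 in PT 4 and 2 in AstroEGFR 1. PT 3 and AstroEGFR 3 thus stood apart from the other 3 libraries there. The part that this difference had in the share on the X chromosome, or in the membership as a whole, was not tested. A further 19 regions lay on unplaced sequences, where the same split was seen, with 0 peaks in PT 3 and 1 in AstroEGFR 3 against 194 in PT 1, 236 in PT 4 and 179 in AstroEGFR 1.

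**Figure D5:**
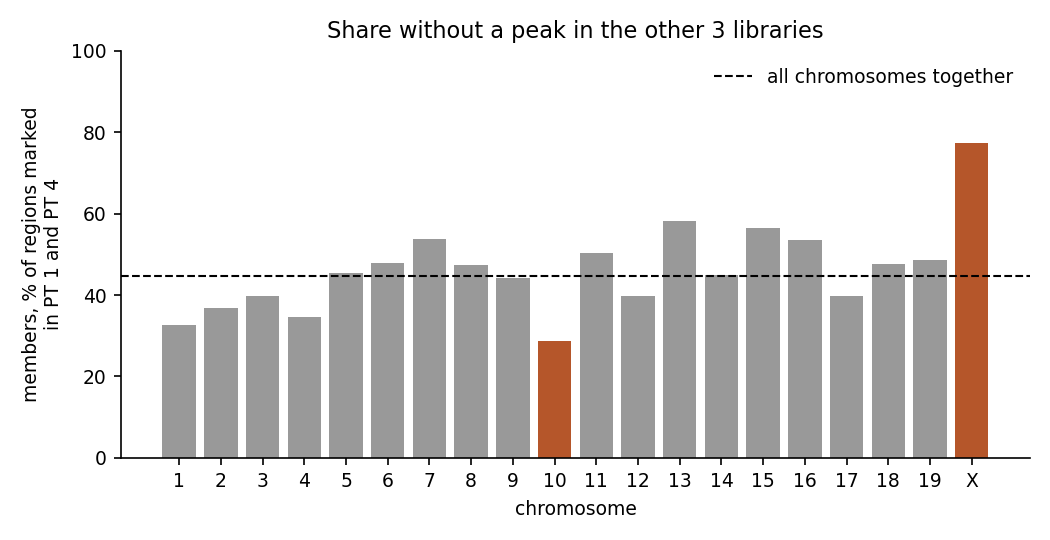
Regions marked only in PT 1 and PT 4 as a percentage of all regions below 10000 bp marked in both (y axis, from 0), for each chromosome (x axis). The dashed line is the share over the whole genome, 44.6%, and the coloured bars are chromosome 10 (28.8%, the lowest) and the X chromosome (77.4%, the highest).

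Membership changed when lists were cut to their strongest peaks. The regions sat near the middle of the PT 1 and PT 4 lists, at median percentiles 52.4 and 51.2. Such cuts therefore also removed many of the regions' own peaks, and the part of list length alone was not tested. When the strongest 34021 peaks of each longer list were used and AstroEGFR 3 was kept whole, 5436 regions met the rule, and 5141 of the 14364 overlapped one of them. When every list was cut to its strongest 3722 peaks, 643 regions met it, and just 55 of the 14364 overlapped one of them. Of the 643, 587 (91.3%) overlapped a peak that an excluded library had in its full list. Bridging gaps of up to 1000 bp moved fewer of them. Of the 14364, 6031 (42.0%) then joined a region with a peak of an excluded library, 8138 (56.7%) remained marked only in PT 1 and PT 4 below the width limit, and 195 (1.36%) became part of a wider region marked only in these 2 cultures.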

How the data were processed

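Chromatin from 5 cultures was immunoprecipitated for H3K27me3 and sequenced. Per the submitters' processing notes, reads were aligned to mm9 with Bowtie 0.12.9 and peaks called with MACS 1.4.1. The authors deposited 1 peak list per library with a position and a score for each peak. The deposited score is by convention of this caller a multiple of the negative log10 of a p-value, but no header states it, so it is used as a score without that reading. The 3 input libraries were not analysed here, and which input served which list is not given in the sources used here.

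Peaks were merged where they overlapped or touched (pandas 2.3.3, numpy 2.4.6), and membership was read from the merged regions. The count was checked with bedtools 2.31.1 and the code tested on simulated lists. Gaps count the bases between intervals. Percentiles are ranks within a list. Spearman correlations came from scipy 1.17.1 and figures from matplotlib 3.10.9. No test was run, since all 5 libraries entered the rule and regions are not replicates. Named regions were the 10 with the highest lower percentile of the best PT 1 and PT 4 scores (ties by width), with the widest 2 inside and the narrowest 2 outside the width limit. Those in the groups, stretches, windows and distance extremes were chosen after their values were seen. The members and lists were chosen with earlier results of these data known. Placement in genes, gene lists, base composition and sequences needed an mm9 genome or annotation, which was not used here. Alternatives changed the peaks used, merging, overlap, width limit, sequences and libraries.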

Additional observations from a re-analysis of the deposited data

How the results depend on the processing

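Several choices moved the results. The number of regions, 14364, stayed within 1.5 times that number in 8 of 15 alternatives. It was 7920 with the upper 50% of each list, 643 when all lists were cut to 3722 peaks, 5436 when the 3 longest were cut to 34021, 7564 with gaps of up to 1000 bp bridged, and 14486 to 36153 with a library left out. It was 36153 without PT 1, 34544 without PT 4 and 22778 without AstroEGFR 1. Leaving out a library drops its condition from the rule, so these counts answer a looser rule than the 14364 did. The share within 5 kb of an excluded library's peak was 58.2% over all regions (95% Wilson interval 57.4 to 59.0, counting error only). Such intervals treat the regions as independent, which they are not, and measure no spread between cultures. They served only as a yardstick. The share left its interval at scores of at least 100 (47.8%), in the upper 50% (44.0%), with 3722 peaks a list (23.8%), with bridged gaps (35.4%) and with 25% coverage required (60.7%). It was 24.0% and 95.5% at distances of 1 and 100 kb, and 41.9% to 57.9% with a library left out. The direction of change with distance is fixed in advance, and leaving out an excluded library leaves fewer peaks to be near. The share on chromosome 10, 5.597% (5.23 to 5.99), was 3.58% with 3722 peaks a list and 5.55% to 7.19% with a library left out. Among all merged regions below the width limit under the same settings it was 13.3% and 8.78% to 10.3%. No paired analysis was possible because the results come from no test, and which astrocyte culture gave rise to which tumour culture is not stated. Shares near start sites, base composition and gene lists were not run without an annotation of the files' build. Read depth was not known, so regions without a call may carry the mark below what the caller reports.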
